A study of Canis lupus familiaris with 10 samples.

Results

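The miR-99, miR-100 and miR-125 families were followed in lymph nodes of dogs with diffuse large B-cell lymphoma (DLBCL), a tumor of large B lymphocytes, and in nodes of healthy dogs. The members were chosen by name, as cfa-miR-99a, cfa-miR-99b, cfa-miR-100, cfa-miR-125a and cfa-miR-125b (cfa for the dog, left out below), and 4 of these 5 were analysed among the 320 miRNAs with read counts; miR-100 was not analysed here. Small RNA was sequenced from fresh-frozen nodes of 6 affected and 4 healthy dogs, each dog giving 1 library. The affected dogs were clinic patients of several breeds and both sexes, whose enlarged peripheral nodes were sampled by biopsy under anesthesia. The healthy dogs were young purpose-bred female hound crosses, and their histologically normal nodes came from surgical teaching courses that ended in euthanasia. Origin and way of sampling thus follow the diagnosis and cannot be told apart from it.

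The miR-99 and miR-100 miRNAs are one family that shares a seed, the stretch near the 5′ end of a miRNA that pairs with its targets, and they are known to act on mTOR and the IGF1 receptor. The miR-125 family is the vertebrate counterpart of lin-4, the first miRNA described, and miR-125b is known for its role in blood stem cells and in B-cell leukemia. In mammals a miR-99 or miR-100 gene, a let-7 gene and a miR-125 gene commonly lie in a row and can be transcribed as one long RNA, from which each mature miRNA is then cut. In the dog annotation UU_Cfam_GSD_1.0, MIR99A-1, MIRLET7C and MIR125B-2 were direct neighbors. MIR99A-2 and MIRLET7A-2 were also direct neighbors, with 2 uncharacterized genes between MIRLET7A-2 and MIR125B-1. MIRLET7E and MIR125A were direct neighbors as well, and 1 gene lay between MIR99B and MIRLET7E. miR-99a and miR-125b each had 2 genes there (MIR99A-1 and MIR99A-2, MIR125B-1 and MIR125B-2), so their reads cannot be assigned to a locus, whereas miR-99b, miR-125a, let-7c and let-7e had 1 gene each.

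The libraries held 10686441 to 25784861 miRNA reads in DLBCL and 30432969 to 34709421 in healthy nodes. The smallest count of a member in any library was 880 reads, so counting error was small beside the differences between dogs. miR-148a alone took 31.3% ± 7.80 (SD, n = 6) of a tumor library's miRNA reads and 61.0% ± 9.67 (n = 4) of a healthy one's. Levels are therefore given as CPM, counts per 1e6 reads of a library size adjusted by TMM, a scaling that assumes most miRNAs do not differ between libraries. The lymphocyte miRNAs miR-142, miR-150 and miR-155 were present in all 10 libraries. DLBCL1, DLBCL2, DLBCL3 and DLBCL5 had a higher share of bases read with high certainty (Q30) than the other libraries, and all healthy libraries were in the lower Q30 group, so the differences are also given for DLBCL4 and DLBCL6 against the 4 healthy libraries. miRNAs are called differentially expressed (DEM) where the adjusted p is under 0.05 and the levels differ by more than 2-fold.

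miR-99a was the most abundant of the 4 members in every library. Its mean CPM ranked 3 among the 320 miRNAs in both groups. The next member was lower by 36.7-fold to 153-fold in 9 of the 10 libraries and by 3.35-fold in DLBCL3. Mature miRNAs are nearly equal in length, but ligation favors some sequences, so a fold between miRNAs is approximate. Below miR-99a the order was not fixed. miR-99b came second in DLBCL1, DLBCL2, DLBCL3, DLBCL5, DLBCL6 and Healthy2, and miR-125b came second in the other 4 libraries. miR-125a was last in 8 libraries, while miR-99b was last in Healthy4 and miR-125b in DLBCL3.

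**Figure D1:**
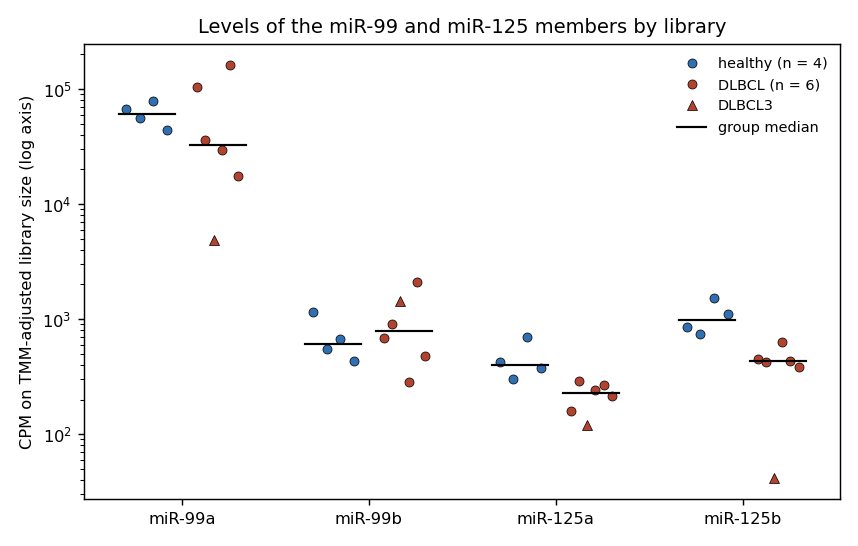
Level of each analysed member in each library, as CPM on the TMM-adjusted library size (log axis), with 4 healthy and 6 DLBCL libraries per member and the group median as a line. miR-99a in DLBCL spans from below to above all healthy libraries, while all DLBCL libraries lie below all healthy libraries for miR-125a and miR-125b; DLBCL3 (triangle) is the lowest point of miR-125b at 41.4 CPM.

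miR-99a was spread widely among the tumors and evenly among the healthy nodes, with nearly the same mean CPM on the TMM scale. Its median on that scale was 32684 CPM in the tumors and 61233 CPM in the healthy nodes. It stood at 103679 CPM in DLBCL1, 36095 in DLBCL2, 4856 in DLBCL3, 29273 in DLBCL4, 162741 in DLBCL5 and 17563 in DLBCL6. In the healthy nodes it stood at 66604, 55861, 79033 and 43879 CPM. With TMM scaling, DLBCL1 and DLBCL5 lay above all healthy libraries, the other 4 tumors lay below all of them, and none lay within their range. This placement depended on the scale. When reads were scaled to all miRNA reads of a library, 4 tumors lay above the healthy range and 1 below it. With miR-148a left out of that total, or with DESeq2's size factors, 2 again lay above and 4 below. On the TMM scale the highest and lowest tumor differed 33.5-fold, against 1.80-fold among healthy nodes. The SD of log2 CPM was 1.82 in DLBCL (rank 34 of 247 from the highest) and 0.36 in healthy nodes (rank 180). The mean was 59034 ± 61344 CPM (SD, n = 6) for tumors against 61344 ± 15007 (n = 4) for healthy nodes, and the log2 fold change was -0.06 (SE 0.72; adjusted p = 0.972, edgeR with Benjamini-Hochberg adjustment over 247 miRNAs). Within the lower Q30 group the log2 fold change was -1.40 and passed the thresholds (adjusted p = 0.0368, edgeR, where 17.8% of the miRNAs tested were DEMs). On the TMM scale both of its tumors lay below all healthy nodes. Both tumors above the healthy range on that scale were in the higher Q30 group, which also held DLBCL2 and DLBCL3 below it.

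miR-99b, whose seed is that of miR-99a, was far less abundant and overlapped between the groups. It stood at 679, 908, 1451, 283, 2081 and 478 CPM in DLBCL1 to DLBCL6 in that order. The healthy nodes held 1142, 549, 668 and 436 CPM. With TMM scaling, DLBCL3 and DLBCL5 lay above all healthy libraries, DLBCL4 lay below them and 3 tumors lay among them. When reads were scaled to all miRNA reads of a library, 5 tumors lay above the healthy range and 0 below it. The mean was 980 ± 674 CPM (SD, n = 6) against 699 ± 310 (n = 4), with a log2 fold change of 0.49 (SE 0.55; adjusted p = 0.592, edgeR with Benjamini-Hochberg adjustment). Its sign was the opposite within the lower Q30 group, where the log2 fold change was -0.88 (adjusted p = 0.267, edgeR). DLBCL3 thus held the lowest miR-99a and the second highest miR-99b of the tumors.

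With TMM scaling the miR-125 miRNAs were lower in every tumor than in any healthy node, without passing the thresholds for a DEM. miR-125b stood at 453, 428, 41.4, 629, 435 and 386 CPM in DLBCL1 to DLBCL6 and at 860, 746, 1516 and 1106 CPM in the healthy nodes. Of the tumors, 5 were within 386 to 629 CPM and DLBCL3 stood far below them. The mean was 395 ± 193 CPM (SD, n = 6) against 1057 ± 341 (n = 4), and the log2 fold change was -1.42 (SE 0.55; unadjusted p = 0.0235, adjusted p = 0.118, edgeR with Benjamini-Hochberg adjustment). Without DLBCL3 it was -1.15 and passed (adjusted p = 0.0387, edgeR), in a fit where 9.02% of the miRNAs tested were DEMs. Within the lower Q30 group it was -1.07 (adjusted p = 0.128, edgeR).

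miR-125a, which shares the miR-125b seed and is cut from another cluster, varied least of the members among the tumors. Its level was 159, 288, 121, 244, 269 and 216 CPM in DLBCL1 to DLBCL6, and 423, 300, 701 and 373 CPM in the healthy nodes. The highest tumor and the lowest healthy node were thus close, at 288 and 300 CPM. The mean was 216 ± 64.8 CPM (SD, n = 6) against 449 ± 175 (n = 4), with a log2 fold change of -1.06 (SE 0.39; unadjusted p = 0.0180, adjusted p = 0.114, edgeR with Benjamini-Hochberg adjustment). Within the lower Q30 group the log2 fold change was -0.98 (adjusted p = 0.180, edgeR). An exact two-sided permutation test compared the mean log2 CPM of 6 against 4 libraries, and its smallest possible p is 0.00476. By this permutation test p was 0.00952 for miR-125a, 0.0190 for miR-125b, 0.448 for miR-99a and 0.638 for miR-99b, before any adjustment over miRNAs. In nodes sequenced whole, fewer cells that hold a miRNA and less of it per cell cannot be told apart.

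Of the 4 members, 0 were DEMs by edgeR, against 14 of the 247 miRNAs tested (5.67%, with 3.64% higher and 2.02% lower in DLBCL). An unadjusted p under 0.05 was reached by 2 members, both lower in DLBCL, against 26.7% of the miRNAs tested (17.4% higher and 9.31% lower). DESeq2 called 0 of the 4, against 14.4% of the miRNAs it tested. limma-voom weighted by sample quality called miR-125b (log2 fold change -1.27, adjusted p = 0.0318, limma-voom), against 18.6% of the miRNAs tested. limma-trend called 0, against 8.5%, but on levels scaled to all miRNA reads, with a median log2 fold change of 0.55 over all miRNAs tested. The groups did not overlap, with DLBCL lower, for 2 of 4 members and for 6.07% of the miRNAs tested, while 6.88% of those tested did not overlap with DLBCL higher and no member was among them. With DESeq2's size factors this held for miR-125b, whereas 5 of 6 tumors lay below the healthy range for miR-125a. When reads were scaled to all miRNA reads, which moved the median over all miRNAs tested from 0.13 to 0.82, both miR-125 miRNAs overlapped between the groups, as 0.81% of the miRNAs tested were then lower without overlap, and their log2 fold changes were -0.56 for miR-125b and -0.20 for miR-125a. With miR-148a left out of the total, which gave a median of 0.04, both still overlapped, with 5 of 6 tumors below the healthy range for miR-125b and 4 of 6 for miR-125a, and 4.05% of the miRNAs tested were lower without overlap. The separation of miR-125a thus held under 1 of 4 scalings and that of miR-125b under 2. With all miRNA reads as the scale miR-99b was at 1.06 and miR-99a at 0.45, none of the 4 passing the thresholds. The median log2 fold change of the members was -0.56 with TMM.

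The let-7 miRNAs that lie in the same clusters did not pass the thresholds. let-7c, the partner of miR-99a and miR-125b, stood at 2152, 914, 591, 960, 1659 and 690 CPM in DLBCL1 to DLBCL6 and at 1364, 1439, 1829 and 1269 CPM in the healthy ones. For let-7c the log2 fold change was -0.35 (SE 0.41; adjusted p = 0.622, edgeR), against -0.85 among the lower Q30 libraries (adjusted p = 0.147, edgeR). let-7e, the partner of miR-99b and miR-125a, stood at 137, 242, 91.2, 175, 213 and 224 CPM in the tumors and at 198, 190, 240 and 247 CPM in healthy nodes, and its log2 fold change was -0.28 (SE 0.37; adjusted p = 0.678, edgeR) and -0.14 within the lower Q30 group (adjusted p = 0.833, edgeR). DLBCL3 held the lowest level of both. Of the 8 let-7 family miRNAs analysed (let-7a to let-7g and miR-98), 0 were DEMs, 4 had a positive and 4 a negative log2 fold change, and the values ran from -0.35 to 0.32 around a median of -0.05. Over all miRNAs tested the median was 0.13 and 5.67% were DEMs.

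Mature miRNAs with genes in the same cluster differed unequally from the healthy nodes. For miR-99a and miR-125b the values pool the reads of 2 genes in different clusters, so they do not show how 1 cluster differed. In DLBCL5, log2 CPM relative to the healthy mean was 1.44 for miR-99a, 0.18 for let-7c and -1.23 for miR-125b. In DLBCL1 the same miRNAs were at 0.79, 0.56 and -1.17. miR-99a was thus above the healthy mean and miR-125b below it in both libraries. In DLBCL3 the values were -3.63 for miR-99a, -1.31 for let-7c and -4.62 for miR-125b, while let-7a, whose gene MIRLET7A-2 lies in the other miR-99a and miR-125b cluster and which has a further gene elsewhere, was at 1.10. In the miR-99b cluster, where each miRNA had 1 gene, DLBCL3 held miR-99b at 1.15, let-7e at -1.25 and miR-125a at -1.82. Outside these clusters, let-7f was 1.08 and miR-10b 1.90 above the healthy mean in DLBCL3.

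**Figure D2:**
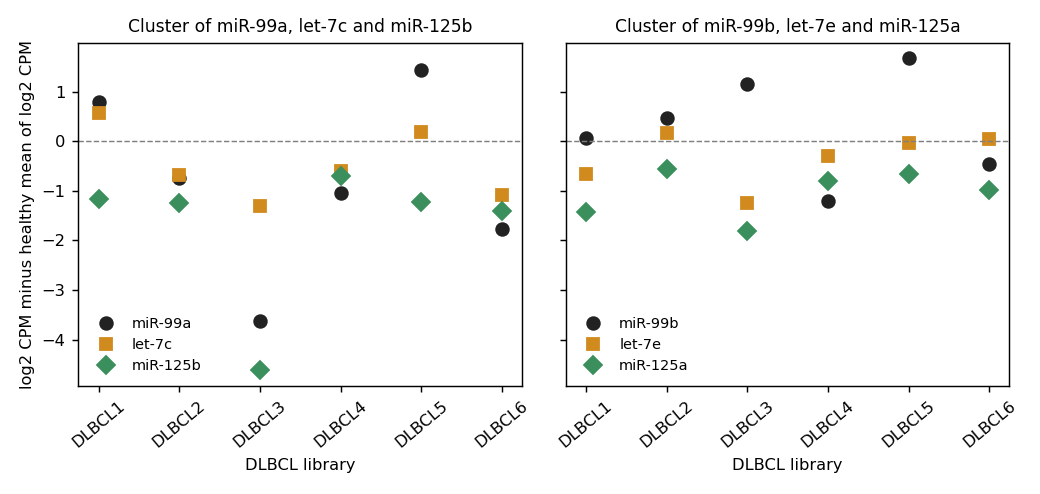
Log2 CPM of the miRNAs of each cluster in each DLBCL library minus the mean log2 CPM of the 4 healthy libraries, for miR-99a, let-7c and miR-125b (left) and miR-99b, let-7e and miR-125a (right), with the dashed line at the healthy mean. miR-125a and miR-125b lie below the line in all 6 tumors, while miR-99a runs from -3.63 in DLBCL3 to 1.44 in DLBCL5. The reads of miR-99a and miR-125b pool 2 genes each.

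Ratios between partners within a library do not depend on how libraries are scaled to each other, and 8 pairs of members or members and let-7 partners were compared. The miR-125a to let-7e ratio was lower in DLBCL in every library. Its log2 ratio ran from -0.05 to 0.48 in the 6 tumors and from 0.60 to 1.55 in the 4 healthy nodes. The means were 0.27 ± 0.19 (SD, n = 6) and 0.97 ± 0.44 (n = 4), a difference of -0.70 (SE 0.23; exact permutation p = 0.00476, the smallest possible, and 0.0381 after Benjamini-Hochberg adjustment over the 8 pairs). Within the lower Q30 group the difference was -0.76, where 2 against 4 libraries allow no p under 0.0667 (exact permutation p = 0.133). miR-125a and let-7e came from neighboring genes, and each had 1 gene in the annotation. miR-125a by itself was already lower without overlap on the TMM scale, as were 6.07% of the miRNAs tested. How often ratios of other miRNA pairs separate the groups was not computed, so the result has no such share beside it.

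The other 7 ratios overlapped between the groups and did not pass. The miR-125b to let-7c log2 ratio differed by -1.24 (SE 0.52; exact permutation p = 0.0619, adjusted 0.248), and the miR-99b to miR-125a log2 ratio by 1.33 (SE 0.60; exact permutation p = 0.0952, adjusted 0.254). These differences were -0.20 and 0.07 within the lower Q30 group, and the former was -0.82 without DLBCL3. For miR-99a to miR-125b the difference was 0.91 (exact permutation p = 0.224, adjusted 0.448), and within the lower Q30 group it had the opposite sign, at -0.35. The differences of the other 4 ratios were -1.10 to 0.68, with adjusted exact permutation p from 0.450 to 0.619. In the lower Q30 group they were -0.56 for miR-99a to let-7c, -0.70 for miR-99b to let-7e, -0.57 for miR-99a to miR-99b and 0.15 for miR-125a to miR-125b. DLBCL3 lay at the end of the range of several ratios. Its log2 ratio of miR-125a to miR-125b was 1.55, the only positive value in 10 libraries, with the next highest at -0.57. Its log2 ratio of miR-99a to miR-99b was 1.74, with the next lowest tumor at 5.20.

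**Figure D3:**
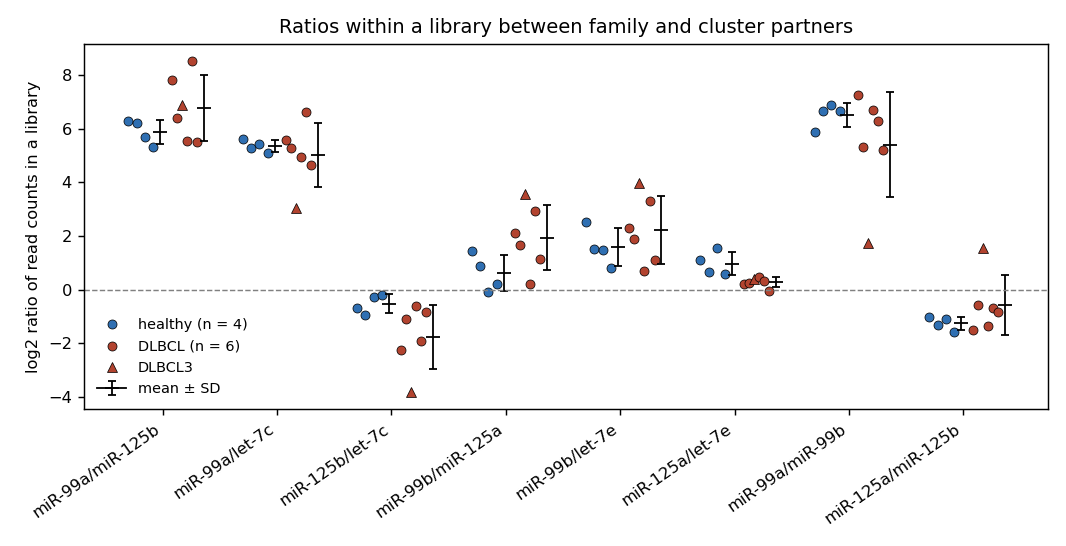
Log2 ratio of read counts between pairs of miRNAs within each library, for 4 healthy and 6 DLBCL libraries, with the mean and SD of each group beside the points. The groups separate for miR-125a/let-7e (at most 0.48 in DLBCL, at least 0.60 in healthy nodes), and DLBCL3 (triangle) stands apart for miR-99a/miR-99b and miR-125a/miR-125b.

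Co-variation of the same 8 pairs among the 6 tumors was computed on log2 CPM, after the levels had been seen. The points share the TMM scale of their library. Where the 2 farthest libraries were left out, they were those farthest from the tumor median of the miRNA named first in a pair. They therefore differ between pairs and leave 4 tumors. miR-99a followed let-7c (Pearson's r = 0.92, exact permutation p = 0.0111; Spearman's rho = 0.89, exact permutation p = 0.0333), with r = 0.98 when the 2 libraries farthest from the median were left out and r = 0.92 without DLBCL3. After adjustment over 8 pairs the values were 0.05 for r and 0.156 for rho, so neither was under 0.05. miR-125a and let-7e had r = 0.94 (exact permutation p = 0.0125, adjusted 0.05; rho = 0.83, exact permutation p = 0.0583, adjusted 0.156), and r was 0.31 without the 2 farthest libraries, DLBCL1 and DLBCL3, so this relation rested on them together, while without DLBCL3 alone r was 0.83. miR-99a and miR-125b, whose genes flank let-7c, had r = 0.74 (exact permutation p = 0.0819, adjusted 0.189; rho = 0.60, p = 0.242, adjusted 0.483), and r was 0.09 without the 2 farthest libraries and -0.05 without DLBCL3, so this relation rested on that library. The same held for miR-125a and miR-125b, at r = 0.78 with all 6 tumors (exact permutation p = 0.0944, adjusted 0.189; rho = 0.31, p = 0.564, adjusted 0.752), 0.04 without the 2 farthest and 0.06 without DLBCL3. For miR-125b and let-7c r was 0.55 (exact permutation p = 0.243, adjusted 0.389; rho = 0.83, p = 0.0583, adjusted 0.156), and it was 0.90 without DLBCL3 and DLBCL4 but 0.06 without DLBCL3 alone.

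No relation of miR-99b with its cluster partners was detected. With let-7e it had r = -0.18 (exact permutation p = 0.746; rho = -0.09, p = 0.919) and with miR-125a r = -0.14 (exact permutation p = 0.789; rho = 0.09, p = 0.919). Without the 2 farthest libraries, DLBCL4 and DLBCL5, these r were -0.67 and -0.48, and without DLBCL3 both were 0.30. With miR-99a of its own family it had r = 0.14 (exact permutation p = 0.782; rho = 0.31, p = 0.564). This r was 0.41 without DLBCL3 and DLBCL5, the 2 libraries farthest by miR-99a, and 0.75 without DLBCL3 alone. After adjustment over the 8 pairs, p was 0.789 for each r and 0.752 to 0.919 for rho (exact permutation).

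**Figure D4:**
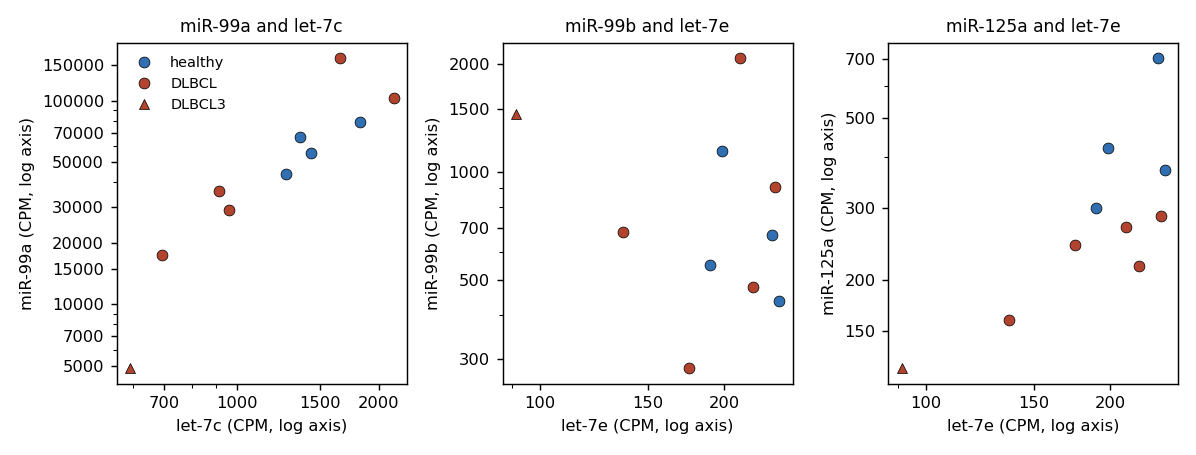
CPM (log axes) of miR-99a against let-7c, miR-99b against let-7e and miR-125a against let-7e, with 1 point per library for the 4 healthy and 6 DLBCL libraries (DLBCL3 as a triangle). miR-99a and let-7c vary together over the tumors (r = 0.92), no such pattern shows for miR-99b and let-7e (r = -0.18), and for miR-125a the healthy points lie above the tumors at a like let-7e level.

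Over all 10 libraries, the pattern of each member was set beside those of the 246 other miRNAs tested, by Pearson's r of log2 CPM and as a description. For miR-99a the highest r was with let-7c (0.92, and 0.90 without DLBCL3), followed by miR-874 (0.85, and 0.78 without DLBCL3) and miR-1468 (0.79, and 0.65 without DLBCL3). For miR-125b it was with miR-30a (0.97), miR-365 (0.93) and miR-592 (0.92), and without DLBCL3 these values were 0.84, 0.61 and 0.65. For miR-125a it was with miR-574 (0.86), miR-146a (0.85) and miR-504 (0.85). Each of these was a DEM lower in DLBCL, so the difference between the groups enters these r. Among the 6 tumors alone, the values were 0.70, 0.74 and 0.73. For miR-99b it was with miR-224 (0.87), let-7d (0.84) and miR-1841 (0.83), all 3 of them miRNAs outside its cluster.

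miR-10a and miR-10b, whose sequences are close to those of the miR-99 family and which lie in the HOX clusters, gave a further comparison. With TMM scaling miR-10a was lower in all 6 tumors (560 to 3385 CPM) than in the healthy nodes (3558 to 7406 CPM), as were 6.07% of the miRNAs tested. This also held with miR-148a left out of the total reads. With DESeq2's size factors and with all miRNA reads as the scale, 5 of 6 tumors lay below the healthy range. The log2 fold change of miR-10a was -1.47 (SE 0.51; adjusted p = 0.109, edgeR). Within the lower Q30 group it passed (-1.59, adjusted p = 0.0346, edgeR), where 17.8% of the miRNAs tested were DEMs. miR-10b overlapped, with a log2 fold change of 0.20 (SE 0.61; adjusted p = 0.853, edgeR), -1.21 within the lower Q30 group (adjusted p = 0.106, edgeR), and its highest level in DLBCL3, at 60142 CPM. DLBCL3 therefore held the lowest miR-99a and the highest miR-10b. How reads that match near-identical miRNAs were shared out is not given in the sources used here.

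Markers of other cells also varied among the libraries, and their part in the results was not tested. The 5 miRNAs of stroma and vessels (miR-126, miR-143, miR-145, miR-199 and miR-214) summed to 18867 to 70627 CPM in DLBCL and 26911 to 55304 CPM in healthy nodes. All 5 had negative log2 fold changes (median -0.74) and 0 were DEMs, against a median of 0.13 and 5.67% DEMs over all miRNAs tested. The highest sum was in DLBCL5, where miR-99a and miR-99b were highest, and DLBCL4 and DLBCL3 had the lowest. Most of each sum was miR-143 (69211 CPM in DLBCL5), and the other 4 miRNAs were lower in DLBCL5 than in any healthy node, at 31.9 CPM for miR-126, 364 for miR-145, 992 for miR-199 and 29.4 for miR-214. DLBCL3 held the lowest miR-126 (8.85 CPM), miR-145 (85.0), miR-199 (239) and miR-214 (9.70) of all libraries. It also had the highest sums of the skeletal muscle miRNAs (360 CPM, against 9.42 to 85.8 in the other tumors) and of the epithelial miRNAs (130 CPM, against 18.5 to 70.7), while miR-200a, miR-200b, miR-429, miR-205 and miR-133b of these lists were at 0 in at least 1 library. Most of the epithelial sum in DLBCL3 was miR-200c (108 CPM). miR-203 of the same list was at its lowest of all libraries in DLBCL3 (3.25 CPM), and miR-141 (4.05 CPM) lay within the healthy range. The red blood cell miRNAs summed to 5171 to 35567 CPM in DLBCL and 808 to 1070 CPM in healthy nodes. Of these 3 miRNAs, 2 were DEMs higher in DLBCL, as were 3.64% of the miRNAs tested. Of the 4 lymphocyte miRNAs, miR-150 was a DEM lower in DLBCL (log2 fold change -2.97), as were 2.02% of the miRNAs tested. The lymphocyte list summed to 8119 to 21051 CPM in DLBCL against 10973 to 27698 in healthy nodes. miR-223, the myeloid marker, ranged from 3.95 to 88.3 CPM in DLBCL and from 16.9 to 38.6 CPM in healthy nodes, with its lowest value in DLBCL3.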

How the data were processed

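After trimming, the authors mapped reads with Bowtie 0.12.9 (CanFam3.1 in the submitters' processing notes), removed tags of repeats and other small RNAs, and quantified miRBase miRNAs with miRDeep2. The deposited read counts of 320 miRNAs are not normalized, and the deposited TPM values are those counts divided by the library's miRNA reads and scaled to 1e6, with no length term. Mapping was not repeated.

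Groups were compared in R 4.3.3 by edgeR 4.0.16 (TMM, default filter by group, quasi-likelihood test, Benjamini-Hochberg adjustment over the 247 miRNAs kept; biological coefficient of variation 0.731). CPM on the log2 scale had a prior count of 2, and ratios had 0.5 reads added. DESeq2 1.42.0 and limma 3.58.1 were alternatives, with other scalings, filters, the Q30 group, the replicate number as a block, and each library left out. limma-trend was fitted to log2(TPM + 1) of the deposited TPM. Permutation tests (Python 3.11.15, scipy 1.17.1) were exact and two-sided. Tests were run on simulated counts first. Libraries of a group were not duplicates (chi-squared per degree of freedom at least 2115). The Q30 groups came from the study's read statistics. UU_Cfam_GSD_1.0 gave gene neighbors only.

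The members and lists were chosen with earlier results of these data known. Named were the members, the let-7 and miR-10 miRNAs, for each member the 3 miRNAs most like it, and the markers of summed lists. The co-variation, overlap under other scalings and the libraries of the block without it were added after the data were seen.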

Additional observations from a re-analysis of the deposited data

Results flagged for a closer look

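In 24 groups of libraries (the log2 CPM of the 4 members and the 8 ratios, in DLBCL and in healthy nodes), the highest and lowest value was compared with the rest by Dixon's criterion. Of these, 3 stood out, all in DLBCL3. Chance alone gives about 1 in 20 for a single group. The ratios reuse the counts of the members, so the groups are not independent and the number flagged cannot be set against that rate. Its miR-125b level of 41.4 CPM lay below the nearest tumor at 386 CPM, a gap of 0.821 of the log2 range of the 6 tumors against a critical value of 0.625. Its log2 ratio of miR-125a to miR-125b, which holds the same miR-125b reads, was 1.55, with the nearest tumor at -0.57 and a gap of 0.693 of the range. Its log2 ratio of miR-99a to miR-99b was 1.74, with the nearest tumor at 5.20 and a gap of 0.627 of the range, just past the critical value.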

How the results depend on the processing

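The number of DEMs among all miRNAs was 14 (9 higher and 5 lower in DLBCL) and became 8 with DESeq2's size factors (3 higher, 5 lower), 23 with total miRNA reads (22 higher, 1 lower), 44 with DESeq2 (32 higher, 12 lower), 46 with limma-voom and quality weights, 7 with the Q30 group as a covariate, and 46 within the lower Q30 group. limma-trend on log2(TPM + 1) gave 21 (18 higher, 3 lower). With 1 library left out it ran from 1 to 23, at 3 without DLBCL1, 22 without DLBCL3, 23 without DLBCL4, and 2, 5, 1 and 6 without Healthy2 to Healthy5 in that order. The replicate block gave 1, as did the same libraries without the block. Under the block the log2 fold changes were -1.03 for miR-99a, 0.53 for miR-99b, -0.96 for miR-125a and -1.88 for miR-125b, with no call among them. The numbers were not taken as pairs, since correlations of same-numbered libraries ran from -0.33 to 0.26 and 1 of 4 correlated best with its own number.

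miR-125a kept its direction and stayed outside the thresholds in 23 of 23 alternatives (-1.20 to -0.20; adjusted p 0.0647 to 0.827). miR-125b kept its direction in all 23 and passed with limma-voom (-1.27) and without DLBCL3 (-1.15), and its values ran from -1.59 to -1.15 with 1 library left out. The direction of miR-99a was not stable. It was 0.45 with total miRNA reads and -0.68 to 0.23 with 1 library left out (0.09 without DLBCL2, 0.23 without DLBCL3, 0.09 without DLBCL4, 0.17 without DLBCL6 and 0.02 without Healthy4), and it passed at -1.40 within the lower Q30 group. miR-99b was at -0.88 both with the Q30 covariate and within the lower Q30 group.

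Within the lower Q30 group the ratio differences were -0.35 for miR-99a/miR-125b and -0.70 for miR-99b/let-7e, both with the sign turned, and -0.76 for miR-125a/let-7e, which cannot pass with 2 against 4 libraries. With 1 library left out, miR-125a/let-7e ran from -0.83 to -0.51. It gave the smallest p that each such exact permutation test allows, which does not pass once adjusted over 8 pairs. The difference for miR-99a/let-7c ran from -0.65 to 0.06 and turned sign without DLBCL3 (0.063). Apart from what the omission of libraries itself does to these tests, the cause of the changes was not tested. The smallest count of a member in a library was 880 reads, so counting error is small for all 4.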
